A study of Rattus norvegicus with 16 samples.

Results

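The locus MERGE.5947 is a stretch of the rat genome at which many transcripts were assembled from the sequencing reads themselves. Its isoforms are the rows whose identifier begins with MERGE.5947 followed by a point and a transcript number. The WKY and SHR files listed 56 such rows among 32924 and the neferine files 51 among 32598, and all 51 were among the 31042 rows that every file holds. Neither the files nor the reference table pairs these identifiers with a gene name, so the locus is described here without a gene name or a position. Ribosomal-RNA-depleted RNA was sequenced from the hearts of 16 rats: 5 Wistar Kyoto rats (WKY, the normotensive control strain) and 5 spontaneously hypertensive rats (SHR) that received double distilled water by stomach tube for 10 weeks, and 6 SHR that received neferine, a lotus-seed alkaloid, at 10 mg/kg per day for the same time. The rows carry no gene symbols, so the labelled heart tissue was not checked against marker genes. The locus came to attention because its isoform MERGE.5947.1 was the single transcript called between neferine-treated and untreated SHR. Values in that comparison therefore serve as description, and nothing is read from its counts of calls.

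Most genes give rise to several transcripts through different start sites, splice choices and ends, and in heart muscle such choices are known to change the length and stiffness of contractile proteins. Isoforms of 1 locus commonly share exons, and short reads from a shared exon have to be divided among them by estimation. A value per isoform can therefore be partly an estimate of that division. Which of these rows share exons is not known here. The deposited values are a normalised abundance on a linear scale. Any scaling by transcript length is not stated, so an order of isoforms is an order of deposited values and not of molecules, and a locus sum is a sum of such values. The depth of the libraries is unknown, and an exact 0 is reported as listed at 0.

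In the 16 libraries all deposited values of a library summed to between 556993 and 683638. MERGE.5947 was the assembled locus with the most shared rows, 51 against 10 to 44 in the other 59 loci that had at least 10, and it also had the highest median sum of these 60. SHR 1 carries a description that reads as WKY, while its other labels read as SHR, with which it was kept. On the first component of the residuals of all tested rows, 4 untreated libraries (WKY 1, WKY 3, SHR 3, SHR 4) scored from -0.462 to -0.295, the other 6 untreated libraries from 0.0662 to 0.396 and the neferine libraries from -0.161 to 0.143.

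The locus as a whole was abundant in all 10 untreated hearts and very low in 2 hearts treated with neferine. Summed over the 51 shared rows, the locus averaged 4100.4 ± 477 over the WKY hearts (SD, n = 5), with single libraries from 3460.1 to 4749.6. In SHR the sum was 3576 ± 282 (SD, n = 5), from 3252 to 3922. With neferine it was 426 in library 1, 1814 in library 2, 2965 in library 3, 3265 in library 4, 3393 in library 5 and 419 in library 6. The neferine libraries thus spread over 8.11-fold, against 1.37-fold in WKY and 1.21-fold in SHR. The locus held 0.563% to 0.723% of a WKY library, 0.522% to 0.626% of a SHR library, and 0.068% to 0.536% of a neferine library. By its sum it ranked between the first and the fourth place among all assembled loci in the untreated libraries and neferine libraries 2 to 5, but 17 in neferine library 1 and 20 in library 6.

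**Figure D1:**
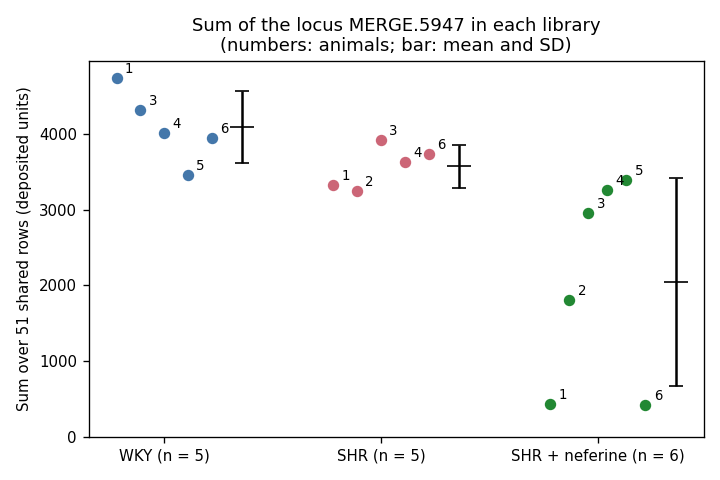
Sum of the deposited values over the 51 shared rows of the locus (y axis, deposited units) in each of 16 libraries (points, labelled with the animal's number), by group, with the group mean and SD as black bars. Neferine libraries 1 and 6 lie at 426 and 419, the other 4 between 1814 and 3393, and all 6 lie below the lowest WKY library at 3460.1.

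Every neferine library had a lower locus sum than every WKY library. The mean log2 sum differed by -1.46 between neferine-treated SHR and WKY. The two-sided exact permutation p was 0.0346 over 462 splits, and 0.0952 adjusted over the 6 tests of single values per library. This comparison uses the neferine libraries in which the locus was noticed, so its p-values are a description. The unadjusted p passed 0.05 by little, and it rose to between 0.0524 and 0.0762 when any 1 of the 5 WKY libraries was left out. Without neferine libraries 1 and 6 the difference was -0.55, with an exact permutation p of 0.00794, the smallest that these group sizes can give. This omission was chosen after the sums were seen to lie apart, so this p is a description. When the sums of all 8664 assembled loci that passed the filter were fitted with limma, 6.24% of loci were called in this comparison and MERGE.5947 was not (adjusted p 0.119). Between SHR and WKY the mean log2 sum differed by -0.19, with an exact permutation p of 0.0635 over 252 splits and 0.0952 adjusted, and SHR and WKY libraries overlapped. In that comparison limma called 5.08% of loci and gave MERGE.5947 an adjusted p of 0.933. Without WKY 5 the exact permutation p was 0.0159 at a difference of -0.25, and with the sum as a share of the library it was 0.0317 at -0.22. The difference between neferine-treated and untreated SHR was -1.27 and serves as description. Without neferine libraries 1 and 6 it was -0.36.

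Among the 60 loci with at least 10 shared rows, the SD of the log2 sum over the neferine libraries was highest for MERGE.5947, at 1.44 against a median of 0.252 and a maximum of 1.1 in the other 59. The SD within groups over all 16 libraries was 0.9 and ranked 5 of 60.

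No isoform carried the locus in all hearts. The first isoform of a library was 1 of 8 different rows: MERGE.5947.67 in 6 libraries, MERGE.5947.63 in 4, and MERGE.5947.69, MERGE.5947.7, MERGE.5947.21, MERGE.5947.55, MERGE.5947.27 and MERGE.5947.68 in 1 library each. Its share ran from 7.91% of the locus sum in WKY 5 to 55.2% in WKY 1. Of the 51 rows, 12 reached a share of 10% in some library and 11 never reached 1%.

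MERGE.5947.63 had the largest mean share over the 16 libraries, 18.1%, and behaved as present or absent. Its value was 2619.9 in WKY 1, 558 in WKY 3 and 691 in WKY 6, and it was listed at 0 in WKY 4 and WKY 5. In SHR it was 1514 in SHR 1, 1729 in SHR 2 and 2063 in SHR 3, and it was listed at 0 in SHR 4 and SHR 6. Among treated hearts it was 655, 704 and 50.6 in neferine 4, 5 and 6, with a listed 0 in neferine 1, 2 and 3. Each group therefore held animals with the isoform and animals in which it was listed at 0, and the groups overlapped.

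MERGE.5947.67 came next, with a mean share of 14.5%. In WKY it was listed at 0 in WKY 1 and had values of 2025, 849.6, 12.2 and 827 in WKY 3, 4, 5 and 6. In SHR it was high only in SHR 6, at 1095, with 5.58 and 5.12 in SHR 1 and SHR 2 and a listed 0 in SHR 3 and SHR 4. With neferine it was 0.319, 7.21, 1275, 1710.5, 186 and 48 in libraries 1 to 6. The libraries in which it was the first isoform thus came from all 3 groups.

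MERGE.5947.69 was high in 2 hearts. Its value was 1621 in SHR 4 and 969.9 in SHR 6, the SHR animals in which MERGE.5947.63 was listed at 0. It was 66.4 in WKY 1 and at most 0.0189 in every other library. MERGE.5947.68 had values of 519 in WKY 3, 411 in SHR 1, 175 in SHR 3, 223 in neferine 5 and 81.2 in neferine 6, and was listed at 0 in the other 11 libraries. These 5 hearts again came from all 3 groups.

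MERGE.5947.63, MERGE.5947.67 and MERGE.5947.69 are the 3 rows with the highest value in any single library. Together they held 44.7% to 55.1% of the locus sum in every SHR library. In WKY they held 56.6%, 59.8%, 21.2%, 0.352% and 38.4% in WKY 1, 3, 4, 5 and 6. With neferine they held 0.0791%, 0.398%, 43%, 72.5%, 26.2% and 23.5% in libraries 1 to 6. WKY 5 and neferine 2 had locus sums of 3460.1 and 1814 almost without these 3 rows. These rows were picked by their highest value, so no test was made.

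**Figure D2:**
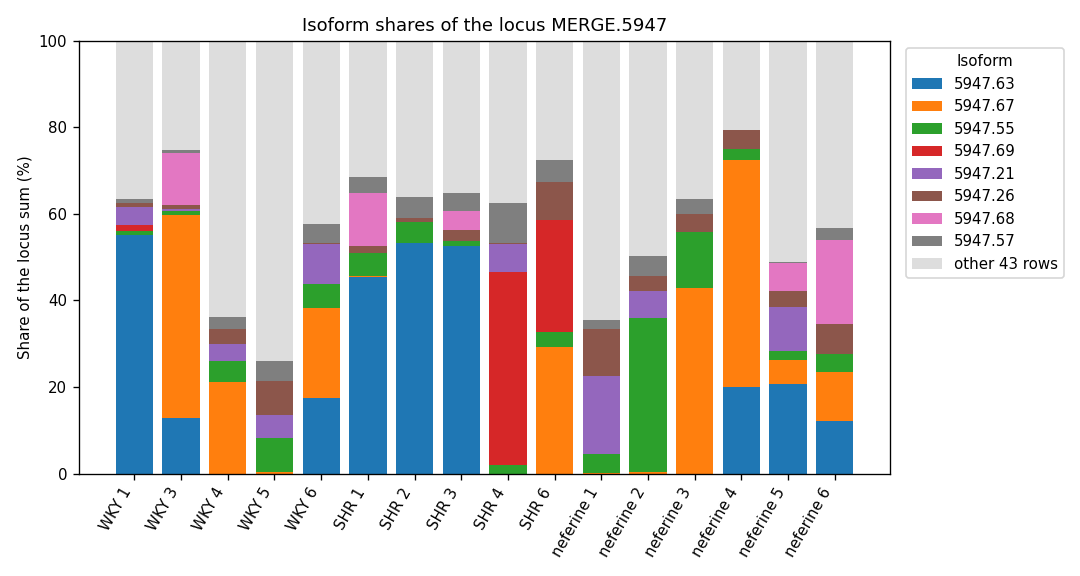
Share of the locus sum (y axis, percent) held by the 8 isoforms with the largest mean share (coloured, named by locus and transcript number) and by the other 43 shared rows (grey) in each of 16 libraries (x axis). The isoform that fills most of a bar changes between animals of the same group, and in WKY 5 no isoform holds more than 7.91%.

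The other isoforms with large mean shares were spread over more libraries. MERGE.5947.55 was above 0 in all 16 libraries and had values of 42.3, 38, 196, 271 and 216 in WKY 1, 3, 4, 5 and 6. It was 175, 156, 43.8, 69.1 and 127 in SHR 1, 2, 3, 4 and 6, and 18.9, 647, 379, 80.3, 69.9 and 16.7 in neferine libraries 1 to 6. In neferine 2 it alone held 35.6% of the locus. MERGE.5947.26 ranged from 7.52 to 272 in WKY, from 14.2 to 329 in SHR and from 29.3 to 142 with neferine, so that the 3 groups overlapped. MERGE.5947.57 ranged from 25.9 to 174 in WKY, from 119 to 331 in SHR and from 2.62 to 102 with neferine. All 6 neferine libraries were below all 5 SHR libraries for MERGE.5947.57, while the neferine and WKY libraries overlapped.

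The division of the locus among its isoforms can be expressed as an effective number, the count of equally abundant isoforms that would give the same concentration of shares. It was 3.19, 3.94, 12.7, 22.5 and 9.72 in WKY 1, 3, 4, 5 and 6. In SHR it was 4.25, 3.36, 3.45, 4.36 and 5.88, and with neferine 12.5, 6.62, 4.56, 3.11, 6.02 and 10.6. SHR hearts lay closer together than WKY hearts, but the groups overlapped. The mean difference of -6.15 between SHR and WKY had an exact permutation p of 0.143 (adjusted 0.171). That of -3.17 between neferine-treated SHR and WKY had an exact permutation p of 0.433. The number of shared rows with a value of at least 1 was 32 to 41 in WKY, 29 to 37 in SHR and 22 to 33 with neferine. Its difference of -5.8 in SHR against WKY had an exact permutation p of 0.0476, and its difference of -10.5 with neferine against WKY had one of 0.00866. Adjusted over the 6 tests these were 0.0952 and 0.0519, so neither passed. The effective number and this count were chosen after the values were seen. The neferine libraries are also those in which the locus was noticed. The p-values of both measures are therefore a description.

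The comparison of the strains asked which isoforms differ between hypertensive and control hearts without treatment. Of the 51 shared rows, 44 passed the filter on low values, which asks for 1 or more in 5 libraries, and were tested in a fit of all 24577 rows that passed it. In this test (limma, Benjamini-Hochberg adjusted p under 0.05, on log2(value + 1)) 4 isoforms were lower in SHR and none was higher: MERGE.5947.13, MERGE.5947.20, MERGE.5947.22 and MERGE.5947.7. Over all rows tested, 2.93% were called in this comparison, 1.04% lower and 1.89% higher. At an unadjusted p under 0.05, 14 of the 44 isoforms passed, against 11.9% of all rows. The median log2 fold change of the 44 was -0.64, with 32 lower and 12 higher, against -9.88e-05 over all rows tested. An isoform could pass the filter through WKY alone, and MERGE.5947.13, MERGE.5947.20 and MERGE.5947.22 did so. These counts therefore describe the rows tested and not the locus. The standard errors were large, with a median of 1.02 against 0.24 over all rows.

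MERGE.5947.13 was present in all WKY hearts and listed at or near 0 in most SHR hearts. Its value was 185, 19.4, 105, 77.5 and 38.8 in WKY 1, 3, 4, 5 and 6. It was listed at 0 in SHR 1, 2 and 3 and was 12.7 in SHR 4 and 0.0648 in SHR 6, so that the strains did not overlap. For SHR minus WKY, limma gave a log2 fold change of -5.27 with an SE of 0.948 and an adjusted p of 0.00392. Outside WKY it reached 1 only in SHR 4, neferine 1 and neferine 2, so it passed the filter only through WKY. These values are therefore a description. With no filter on low values the limma adjusted p was 0.00469. In treated hearts MERGE.5947.13 was 7.56 and 13.4 in libraries 1 and 2, 0.079 in library 6 and listed at 0 in the remaining 3.

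MERGE.5947.20 and MERGE.5947.22 had almost the same pattern. MERGE.5947.20 had values of 128, 16.3, 91.4, 89.6 and 39.7 in WKY 1, 3, 4, 5 and 6 and was listed at 0 in all SHR libraries except SHR 4, at 23.8. MERGE.5947.22 had values of 126, 13.9, 91.1, 77.7 and 39.9 in the same WKY libraries and was listed at 0 in all SHR libraries except SHR 4, at 21.5. For both isoforms SHR 4 was above WKY 3 and below the other WKY libraries, so the strains overlapped by 1 library. The log2 fold changes were -4.97 (SE 1.04) for MERGE.5947.20 and -4.91 (SE 1.03) for MERGE.5947.22, with a limma adjusted p of 0.0131 for both. Both isoforms passed the filter only through WKY, so these values are a description. With no filter on low values the limma adjusted p was 0.0152 for both.

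MERGE.5947.7 was above 0 in every heart. Its value was 82.7, 86.3, 197, 274 and 290.2 in WKY 1, 3, 4, 5 and 6, and 27.7, 45.6, 15.5, 24.9 and 37.2 in SHR 1, 2, 3, 4 and 6. Every SHR library lay below every WKY library, and limma gave a log2 fold change of -2.47 with an SE of 0.586 and an adjusted p of 0.0297. This call was lost without any 1 of WKY 4, WKY 5, WKY 6, SHR 1, SHR 3, SHR 4 and SHR 6 (adjusted p from 0.0502 to 0.081), and without WKY 1, WKY 3, SHR 3 and SHR 4 together (adjusted p 0.118). With neferine its values were 12.4, 85.1, 51, 54.3, 18.8 and 8.08 in libraries 1 to 6, which overlapped both other groups. Among the 44 isoforms 2 had fully separate strains, MERGE.5947.7 and MERGE.5947.13, both lower in SHR, against 4.45% of all rows tested and 1.92% lower.

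The rows listed in the WKY and SHR files alone were 5, and 4 of them were listed at 0 in all 5 SHR libraries. MERGE.5947.5 and MERGE.5947.6 had values of 47.1 and 48.2 in WKY 4, 5.28 and 6.43 in WKY 5, 0.843 and 1.05 in WKY 1 and 0.27 and 0.425 in WKY 6, and both were listed at 0 in WKY 3. MERGE.5947.44 was 13.8 in WKY 1 and 61.1 in WKY 4 and was listed at 0 in the other WKY libraries. MERGE.5947.52 was 2.55, 1.62, 2.69 and 3.69 in WKY 1, 4, 5 and 6. MERGE.5947.66 was 26.2 in WKY 1, 20.1 in SHR 3 and 6.62 in SHR 6 and listed at 0 in the other untreated libraries. These rows have no value in the neferine files. They added at most 158 to a locus sum, or 3.79% of it, in WKY 4.

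**Figure D3:**
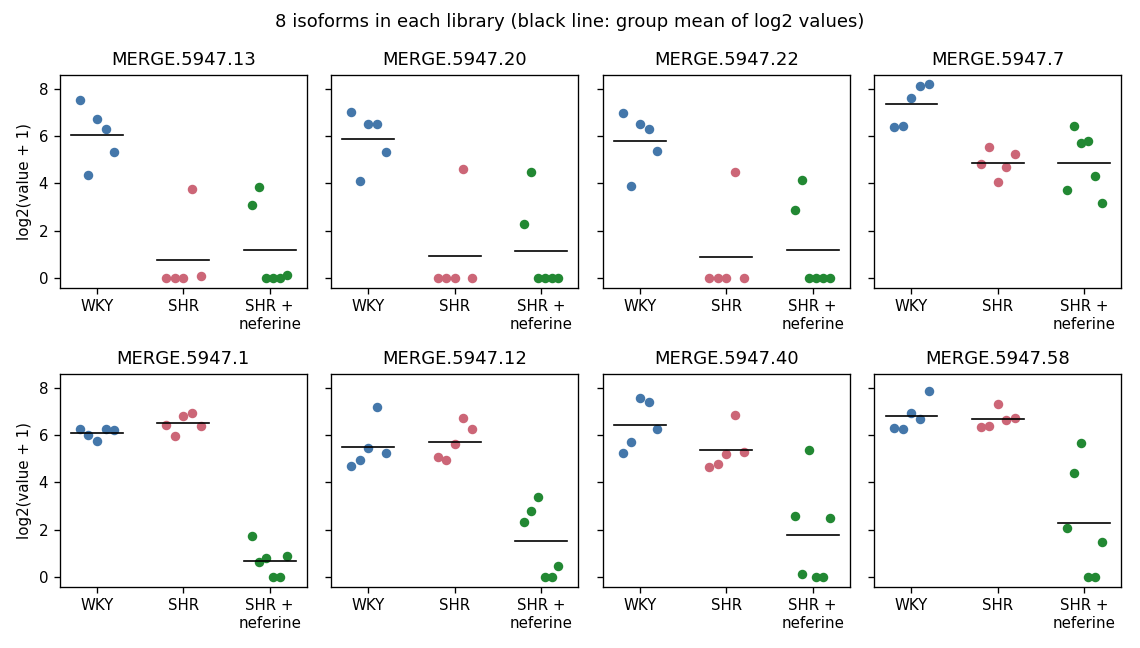
log2(value + 1) of 8 isoforms (y axes) in each of 16 libraries (points), by group (x axes), with the group mean as a black line. For MERGE.5947.13, MERGE.5947.20, MERGE.5947.22 and MERGE.5947.7 the SHR means lie below the WKY means, while for MERGE.5947.1 and MERGE.5947.12 all neferine libraries lie below all untreated libraries.

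A further comparison asked which isoforms differ between treated SHR and the control strain. It uses the neferine libraries in which the locus was noticed, and it shares its WKY libraries with the comparison of the strains. Its fold changes, p-values and counts are therefore a description. limma called 12 of the 44 isoforms, all lower with neferine than in WKY, where it called 4.1% of all rows tested, 1.47% lower. MERGE.5947.1, known beforehand to be low in the neferine libraries, was 1 of the 12. The median log2 fold change of the 44 was -2.01, with 38 lower and 6 higher, against 0.04 over all rows. The locus sum itself was lower in these libraries. When neferine libraries 1 and 6, with the lowest sums, were left out, 8 isoforms were called. The shares over all rows given above belong to the fit of all 16 libraries, so this count has none beside it. All neferine libraries lay below all WKY libraries for 5 of the 44 (MERGE.5947.1, MERGE.5947.12, MERGE.5947.13, MERGE.5947.47 and MERGE.5947.58). Of all rows, 5.03% were so separated in either direction and 1.89% with neferine lower.

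The 5 isoforms with the smallest p here were MERGE.5947.1, MERGE.5947.12, MERGE.5947.40, MERGE.5947.13 and MERGE.5947.58. MERGE.5947.1 had values of 75.3, 63, 52.1, 74.7 and 73.6 in WKY 1, 3, 4, 5 and 6 and 85.7, 61.7, 111, 121 and 81.4 in SHR 1, 2, 3, 4 and 6. With neferine it did not exceed 2.35. In untreated hearts its share of the locus stayed between 1.3% and 3.33%. In treated hearts the share was 0.552%, 0.0301%, 0.0255%, 0%, 0% and 0.196% in libraries 1 to 6. The listed zeros were in neferine 4 and 5, whose locus sums of 3265 and 3393 lay within the range of untreated SHR.

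MERGE.5947.12 had values of 24.4, 29.5, 42.3, 145 and 36.9 in WKY 1, 3, 4, 5 and 6 and 32.1, 29.5, 48.7, 103 and 76.2 in SHR 1, 2, 3, 4 and 6. In treated hearts it was 3.98, 5.94, 9.5 and 0.385 in neferine 1, 2, 3 and 6, with a listed 0 in neferine 4 and 5. All treated hearts lay below all untreated ones. Its log2 fold change was -4 against WKY (SE 0.662, limma adjusted p 0.00171) and -4.22 against SHR. MERGE.5947.12 varied with MERGE.5947.1, for which the locus was chosen (Pearson's r 0.912 over the 16 libraries). Both fold changes are therefore a description. For deviations from group means the r of these 2 isoforms was 0.536 and not called (adjusted permutation p 0.466).

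MERGE.5947.58 had values of 78.2, 76, 120.3, 100.3 and 232 in WKY 1, 3, 4, 5 and 6 and 79.3, 81.6, 157, 96.9 and 104 in SHR 1, 2, 3, 4 and 6. Its neferine values were 3.2, 20.1, 50.1 and 1.76 in libraries 1, 2, 3 and 6, and 0 was listed in 4 and 5, so every treated heart was below every untreated one. Its log2 fold change against WKY was -4.54 (SE 0.85, limma adjusted p 0.00488). MERGE.5947.40 was 37.1 to 189 in WKY and 24.2 to 113 in SHR. In neferine 1, 2, 3 and 6 it was 4.95, 0.0967, 39.7 and 4.54, and in neferine 4 and 5 a 0 was listed. Neferine 3 was above WKY 1 and within the SHR range, so for MERGE.5947.40 the groups overlapped. Its log2 fold change against WKY was -4.68 (SE 0.859, limma adjusted p 0.00418), and that of MERGE.5947.13 was -4.87 (SE 0.908, limma adjusted p 0.00468). MERGE.5947.58 and MERGE.5947.40 also varied with MERGE.5947.1 over the 16 libraries (Pearson's r 0.865 and 0.832), so their p-values too are a description. For deviations from group means these r were 0.374 and 0.481 and neither was called (adjusted permutation p 0.724 and 0.608). The other 7 called isoforms were MERGE.5947.20, MERGE.5947.22, MERGE.5947.47, MERGE.5947.7, MERGE.5947.28, MERGE.5947.30 and MERGE.5947.2, with log2 fold changes from -4.77 to -2.49 and adjusted p from 0.0109 to 0.0434.

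Between neferine-treated and untreated SHR, MERGE.5947.1 was called, as 1 of the 44 isoforms and 0.00407% of all rows. Nothing is read from this count, since that call is why the locus was chosen. All 6 neferine libraries lay below all 5 SHR libraries for 4 isoforms (MERGE.5947.1, MERGE.5947.12, MERGE.5947.57 and MERGE.5947.58). Of all rows, 0.199% were so separated with neferine lower and 0.517% in either direction. MERGE.5947.12, MERGE.5947.57 and MERGE.5947.58 varied with MERGE.5947.1 over the 16 libraries (Pearson's r 0.912, 0.74 and 0.865). The count of 4 is therefore a description too. The median log2 fold change of the 44 was -0.3, with 25 lower and 19 higher, against 0.04 over all rows.

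A separate fit tested the share of each isoform within its own locus, over the 8947 tested rows of assembled loci with at least 2 shared rows. Between SHR and WKY no share of MERGE.5947 was called by limma (0 of 44, smallest adjusted p 0.0869, and 7 of 44 at an unadjusted p under 0.05), against 0.805% of all rows and 8.74% at an unadjusted p under 0.05. Without SHR 4 there were 3 called shares, of MERGE.5947.13, MERGE.5947.20 and MERGE.5947.22, and 1 each without neferine 1 (MERGE.5947.13) and without neferine 5 (MERGE.5947.7), which enter the fit's estimate of the spread. The 0.805% belongs to the fit of all libraries, so these counts have no share over all rows beside them. Between neferine-treated SHR and WKY the share of MERGE.5947.1 was called lower, with a log2 fold change of -4.01 (SE 0.729), as 1 of 44 against 0.827% of all rows and 0.302% lower. This is a description, since the isoform was chosen for its low neferine values. The call was lost with only these 2 groups in the fit and without WKY 1, WKY 3, SHR 3 and SHR 4. Between neferine-treated and untreated SHR no share was called by limma (0 of 44, and 12 of 44 at an unadjusted p under 0.05), against 0% of all rows and 5.17% at an unadjusted p under 0.05. These counts, too, are a description.

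Some isoforms rose and fell together from animal to animal, but a smaller share of pairs was called than in most other large loci. Over the 16 libraries Pearson's r of log2(value + 1) was computed for all 946 pairs of the 44 isoforms. A permutation test with 100000 resamples, adjusted over the 946 pairs, called 71, or 7.51%, of which 69 were positive and 2 negative. The same test within each of the other 58 loci with at least 10 shared rows and enough rows past the filter called 20.5% of their 3425 pairs, with a median of 13.8% per locus, and MERGE.5947 ranked 39 of 59. Since the adjustment depends on the number and the p-values of all pairs of a locus, the unadjusted share was also compared. At an unadjusted permutation p under 0.05 it was 17.5% of pairs in MERGE.5947 and 31.8% in the other loci. The median r went the other way, at 0.155 in MERGE.5947 against a median of -0.0218 in the other loci (rank 17 of 59). Of the 946 pairs, 636 had a positive r. As shares of the locus sum, 14 pairs of MERGE.5947 were called. Spearman's rho called 37 pairs, 35 of them among the 71. When the group means were removed and libraries were permuted within groups, 26 pairs were called, 22 positive and 4 negative, and 21 of them were among the 71. The other loci were not tested in these ways. The counts of 14, 37 and 26 thus have no share from other loci beside them and describe this locus only. All pairs share the same libraries, and isoforms of 1 locus may share reads. Of the 51 shared rows, 37 were listed at 0 in at least 1 library, and 25.5% of all their values were 0. By this percentage the locus ranked 20 of the 60 large loci, with a median of 12.5% and a maximum of 52.3% in the others. Among the values of the 44 isoforms used for the pairs 17% were 0, against 5.1% over all tested rows. Many correlations over all libraries therefore set libraries with an isoform against libraries without it.

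The isoforms with the most similar patterns were MERGE.5947.13, MERGE.5947.20 and MERGE.5947.22. All 3 reached a value of 1 in the same 8 libraries, the 5 WKY libraries, SHR 4, neferine 1 and neferine 2, and were at most 0.079 in the other 8. Since the libraries fall into these 2 sets, r is given within the 8. It was 0.985 for MERGE.5947.20 and MERGE.5947.22, with a rho of 1. It was 0.968 for MERGE.5947.13 and MERGE.5947.22 and 0.936 for MERGE.5947.13 and MERGE.5947.20, both with a rho of 0.905. These pairs were picked as the highest of the 946, so these values are a description with no test. MERGE.5947.14 and MERGE.5947.21 reached 1 in these 8 libraries and also in neferine 5. MERGE.5947.21 was 201, 17, 156, 186 and 363 in WKY 1, 3, 4, 5 and 6. It was 232 in SHR 4, 76.7, 112 and 349.8 in neferine 1, 2 and 5, and listed at 0 in the other 7 libraries.

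For a description of the whole locus, the 44 isoforms were joined by average linkage on 1 minus r up to a distance of 0.5, a rule chosen after the values were seen. The largest set held 10 isoforms: MERGE.5947.1, MERGE.5947.2, MERGE.5947.12, MERGE.5947.16, MERGE.5947.19, MERGE.5947.39, MERGE.5947.40, MERGE.5947.47, MERGE.5947.57 and MERGE.5947.58. Its median pairwise r was 0.853, and 0.62 for deviations from group means. No pair of MERGE.5947.1 with another isoform of the set was called for those deviations. These 10 summed to 542 to 1097 in WKY and 642 to 1482 in SHR. With neferine they summed to 50, 307, 742, 15.5, 8.03 and 40.5 in libraries 1 to 6. The set was thus lowest in neferine 4 and 5, whose locus sums lay within the SHR range, and inside the untreated range in neferine 3. MERGE.5947.2, MERGE.5947.16, MERGE.5947.19 and MERGE.5947.58 each reached 1 in the same 14 libraries, all except neferine 4 and 5.

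The set of MERGE.5947.13, MERGE.5947.14, MERGE.5947.20, MERGE.5947.21, MERGE.5947.22 and MERGE.5947.49 summed to 821, 123, 603, 631 and 699 in WKY 1, 3, 4, 5 and 6. In SHR 1, 2, 3, 4 and 6 it summed to 0, 16.6, 53.2, 333 and 2.62, and in neferine 1 to 6 to 180.1, 248, 0, 18.9, 642 and 47.2. A set of 5 rows, MERGE.5947.28, MERGE.5947.29, MERGE.5947.30, MERGE.5947.42 and MERGE.5947.51, was low throughout, with sums of 31.7, 66.1, 72.3, 123 and 1.81 in the WKY libraries and at most 27.1 in any SHR or neferine library. WKY 6 was the exception among WKY hearts in this set, as it was for the set of MERGE.5947.3, MERGE.5947.4 and MERGE.5947.31. That set summed to 126 to 307 in WKY 1, 3, 4 and 5 and 269 to 282 in SHR 1, 2 and 3, but to 8.11 in WKY 6, 8.01 in SHR 4 and 5.92 in SHR 6.

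**Figure D4:**
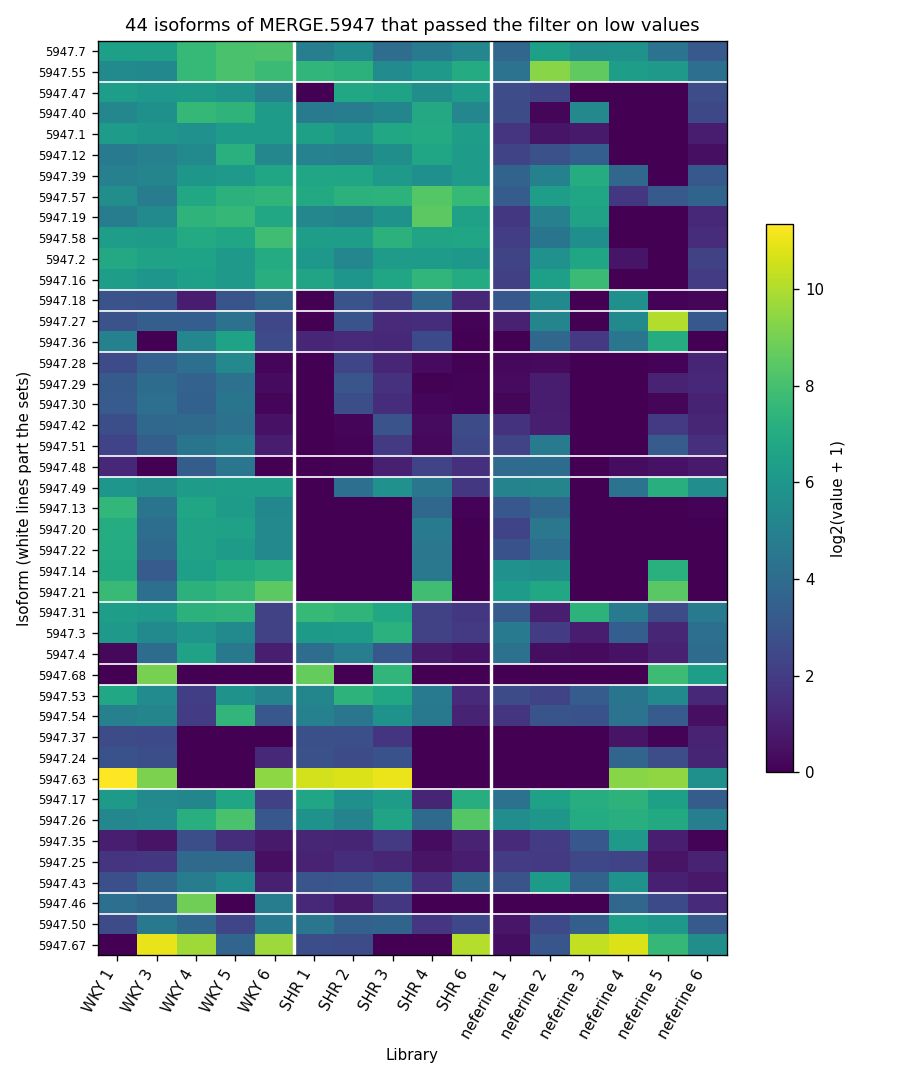
log2(value + 1) (colour) of the 44 tested isoforms (rows, grouped by average linkage of their correlations, with horizontal white lines between sets) in 16 libraries (columns, with vertical white lines between groups). Dark blocks are isoforms listed at or near 0, such as the set of MERGE.5947.1 in neferine 4 and 5 and the set of MERGE.5947.13 in most SHR libraries.

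The abundant isoforms belonged to smaller sets. MERGE.5947.63 was grouped with MERGE.5947.24, MERGE.5947.37, MERGE.5947.53 and MERGE.5947.54. MERGE.5947.24 reached 1 in exactly the 9 libraries in which MERGE.5947.63 did, at values no higher than 12.1. MERGE.5947.67 was grouped with MERGE.5947.50 alone. MERGE.5947.7 and MERGE.5947.55 formed a pair whose r was 0.63 over all libraries and 0.92 for deviations from group means. MERGE.5947.27 and MERGE.5947.36 formed another, both highest in neferine 5, at 1057 and 129.8. The remaining set, MERGE.5947.17, MERGE.5947.25, MERGE.5947.26, MERGE.5947.35 and MERGE.5947.43, summed to 13.2 to 439 in WKY, 18.3 to 477 in SHR and 40.3 to 434 with neferine, and was lowest in WKY 6 and SHR 4.

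The 7 shared rows that missed the filter on low values were MERGE.5947.69 and 6 rows present in very few hearts. MERGE.5947.8 was 2.81 in SHR 6, 120.1 in neferine 2 and 2.66 in neferine 3, and MERGE.5947.65 was 7.02, 16.6 and 17.8 in the same libraries. MERGE.5947.10 was 18.3, 0.426 and 11.3 and MERGE.5947.11 was 33.2, 0.133 and 1.53 in these 3. All 4 rows were listed at 0 in the other 13 libraries, every WKY library among them. MERGE.5947.41 was 14.8 in WKY 4, 10.8 in SHR 6 and 7.83 in neferine 3, MERGE.5947.45 was 7.92, 14.3 and 5.02 in those hearts, and both were listed at 0 elsewhere. SHR 6 and neferine 3 thus held all 6 of these rows. Among the isoforms outside any set, MERGE.5947.46 was 472.6 in WKY 4 and at most 26.1 in any other library, and MERGE.5947.18 was highest in neferine 2 and 4, at 42.8 and 50.8.

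Few negative pairs were called, and those called with the group means removed have no share from other loci beside them. When the group means were removed, the 4 called negative pairs joined MERGE.5947.12 or MERGE.5947.19 to MERGE.5947.63 or MERGE.5947.24, which are present or absent together. For MERGE.5947.12 the r of deviations was -0.83 with both (permutation p adjusted over 946 pairs 0.00757 with MERGE.5947.63 and 0.0121 with MERGE.5947.24). For MERGE.5947.19 it was -0.75 with MERGE.5947.63 and -0.79 with MERGE.5947.24 (adjusted permutation p 0.0207 and 0.0366). Over all libraries none of these 4 pairs was called, with r from -0.47 to -0.19. Without removal of the group means, MERGE.5947.27 and MERGE.5947.39 had the lowest r, -0.75 (permutation p 0.00333, adjusted 0.0451), with rho -0.58 (permutation p 0.0211, adjusted 0.19). Their r of deviations from group means was -0.72 and not called (adjusted permutation p 0.429). Neferine 5 was farthest from the median of MERGE.5947.27, and neferine 3 and SHR 1, both listed at 0, were tied behind it. Without neferine 5 and neferine 3 r was -0.34, and without neferine 5 and SHR 1 it was -0.37, so the relation rests on such libraries. MERGE.5947.48 was compared with MERGE.5947.63 by library, since MERGE.5947.63 was listed at 0 in 7 of them. In those 7 MERGE.5947.48 had values of 9.24 in WKY 4, 21.3 in WKY 5, 3.96 in SHR 4, 1.94 in SHR 6, 14.6 in neferine 1, 15.1 in neferine 2 and 0.00282 in neferine 3. In the 9 libraries with MERGE.5947.63 it reached 1 only in WKY 1, at 1.47. MERGE.5947.24, which reached 1 in the same libraries as MERGE.5947.63, likewise had 1 library in common with MERGE.5947.48.

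Outside the locus, the rows most like the locus sum over the 16 libraries were sought among the 24533 other tested rows. ENSRNOT00000076620 had an r of 0.948 and a rho of 0.694 with the log2 sum. Its values were 4.28 and 3.95 in neferine 1 and 6 and 9.79 to 17 in the other 14 libraries, and r without neferine 1 and 6 was 0.602. ENSRNOT00000084616 had an r of 0.882 and a rho of 0.679, with values of 2.32 and 4.32 in neferine 1 and 6 and 8.42 to 31.2 in the others, and r fell to 0.391 without these 2 libraries. Both likenesses thus rest largely on the 2 hearts with the low locus sum. The rows most like MERGE.5947.1 were ENSRNOT00000024005 (r 0.871, rho 0.699) and MERGE.11730.2 (r 0.837, rho 0.68). ENSRNOT00000024005 had values of 6.43 to 12.8 in untreated hearts and 3.52 to 4.84 with neferine. These rows were picked as the most similar of all, so their r is a description and carries no test.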

How the data were processed

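Heart RNA was freed of ribosomal RNA and made into libraries with NEBNext kits, per the labels' protocols. Each library has 1 deposited file, in which the authors give a normalised abundance signal per transcript on a linear scale. The aligner, assembler, quantification tool, build and filters are not given in the sources used here; limma is named in the submitters' processing notes, with neither version nor role. Rows were missing from 1 set of files or the other, so a row present in WKY alone can be absent from the neferine files. No depth is known, and the number of animals sets the precision.

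Groups and animal numbers came from the titles. Nothing beyond these names says that each number is a separate animal, so p-values measure the spread between these libraries. The 31042 rows shared by all files were used, and the 24577 at 1 or more in 5 or more libraries were fitted with limma 3.58.1 in R 4.3.3 (variance trend, log2(value + 1), 16 libraries, 1 mean per group). The pseudocount of 1 understates changes of low rows. Shares were fitted as log2 of (value + 1) over (locus sum + number of rows of the locus). Single values per library were compared by two-sided exact permutation tests. The fit was tested on simulated data. The locus and the rules were chosen with earlier results of these data known. Named isoforms were MERGE.5947.1, the 8 with the largest mean share, those called (at most 5 by p, others listed), the 2 with the smallest unadjusted p where fewer than 2 were called, those in the 3 highest and 3 lowest correlated pairs, and the rows of 1 set of files. Outside the locus the rule named the 2 rows most like the locus sum and the 2 most like MERGE.5947.1. Other isoforms named in the text, including those of the sets, were chosen after their values were seen, as were the effective number, the count of rows at 1 or more, the sets, the fit of locus sums, the correlations within other loci, and the omission of neferine 1 and 6 and of WKY 1, WKY 3, SHR 3 and SHR 4. Alternatives were a pseudocount of 0.1, no filter, other scaling, other choices of rows and libraries, a threshold of 0.01 and the animal number as a block.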

Additional observations from a re-analysis of the deposited data

Results flagged for a closer look

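In 69 groups of library values (the locus sum, 2 measures of isoform number and 20 named isoforms), 21 had a library far from the others by Dixon's ratio. For normally distributed values chance gives about 1 in 20. Many of the isoform values were listed at 0 or strongly skewed, and some isoforms were named for high values. The 21 can therefore not be set against that rate. SHR 4 stood apart for 5 isoforms: MERGE.5947.13 at 12.7, MERGE.5947.20 at 23.8, MERGE.5947.21 at 232, MERGE.5947.22 at 21.5 and MERGE.5947.40 at 113, while the next SHR library was at 0.0648, 0, 0, 0 and 37.7. SHR 6 stood apart for MERGE.5947.26, at 329, and MERGE.5947.67, at 1095, and SHR 2 for MERGE.5947.27, at 6.74. In WKY, MERGE.5947.63 was 2619.9 and MERGE.5947.69 was 66.4 in WKY 1, MERGE.5947.68 was 519 in WKY 3, MERGE.5947.12 was 145 in WKY 5 and MERGE.5947.58 was 232 in WKY 6, each far above the next library. WKY 6 had 32 isoforms at a value of 1 or more, and the next WKY library had 39.

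Among the treated hearts, neferine 5 was far above the others for MERGE.5947.21 (349.8), MERGE.5947.27 (1057, with the next at 42.4) and MERGE.5947.68 (223). Neferine 3 was so for MERGE.5947.39 (129.9) and MERGE.5947.40 (39.7), neferine 2 for MERGE.5947.20 (21.7), and neferine 1 for MERGE.5947.1 (2.35, with the next at 0.819).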

How the results depend on the processing

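The 8 isoforms refitted under every alternative (the 8 plotted by library) kept the direction of their fold changes. The 4 isoforms lower in SHR and 12 lower with neferine against WKY were 1 and 5 at an adjusted p under 0.01. The shares over all rows given earlier belong to the main fit. The counts of calls in this section have no such share beside them and describe the locus rows only. Without each library in turn, neferine against SHR gave 1 to 4 called isoforms (4 without neferine 3, 2 without SHR 1), a description of the comparison that chose the locus. Called shares between SHR and WKY were 1 with only these groups fitted, 1 without neferine 1 and 6, and 0 to 3 without each library in turn. Called shares between neferine and SHR were 1 without neferine 1 and 6 and 0 to 1 without each library. Between neferine and WKY the called share became 0 with only these groups, at an adjusted p under 0.01, and without WKY 1, WKY 3, SHR 3 and SHR 4. The log2 locus sum of SHR against WKY as a share of the library total differed by -0.22 (exact permutation p 0.0317), and by -0.25 to -0.14 without each library. Neferine against WKY was -1.46 in limma over all loci (adjusted p 0.119) and -1.7 to -1.09 without each library. The 71 called pairs became 37 by Spearman's rho, 26 as deviations from group means, 14 as shares of the locus sum and 47 without neferine 1 and 6. The omission of neferine 1 and 6 and of WKY 1, WKY 3, SHR 3 and SHR 4, and the fit of all loci, were chosen after seeing the data. The cause of these changes was not tested.

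The animal numbers did not pair the libraries: 1 of 14 same-numbered pairs had a correlation of deviations over 0.1 (-0.0732 to 0.122), and 3 of 16 libraries correlated best with their own number. With the number as a block, 3 isoforms were called in SHR against WKY, where MERGE.5947.7 was lost (limma adjusted p 0.053), and 9 in neferine against WKY. The called share became 0, and the locus sum of neferine against WKY differed by -1.52 (exact permutation p 0.0625, the smallest that 5 pairs can give). With the number removed as well, 126 isoform pairs were called. There the libraries were still permuted within groups only, which ignores the removed number, so the 126 cannot be set against the other counts of pairs. The unknown depth and the few animals limit what could be detected.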
